A study of Homo sapiens with 6 samples.

Results

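The genes described here are 10 of the 28395 genes in the deposited table, chosen by symbol as lung lineage factors and genes of alveolar type 2 cells. The transcription factors are NKX2-1, FOXA1, FOXA2 and CEBPA, and the alveolar type 2 genes are NAPSA, SLC34A2, ABCA3, LPCAT1, LAMP3 and SFTPB. All 10 were found. They were measured by RNA-seq in HCC827, an established human lung adenocarcinoma cell line with an activating deletion in EGFR, treated for 24 h with the vehicle DMSO (3 libraries) or with 1 μM erlotinib, an inhibitor of the EGFR kinase (3 libraries). Both groups are the same commercial line in the same medium and differ by the drug, and 1 line is the whole model. The labels do not say whether libraries of a group came from separate cultures. The p-values below therefore weigh group differences against the spread between these samples, which may be technical. The libraries held 20858083, 24641819 and 21172884 reads on genes in DMSO and 21944007, 20760204 and 21678395 with erlotinib, listed here and below in the order DMSO 1 to 3 and erlotinib 4 to 6.

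Alveolar type 2 cells line the air sacs of the lung and secrete surfactant, a film of lipid and protein that lowers surface tension. NKX2-1, also called TTF-1, is a homeodomain factor that specifies lung and thyroid epithelium, and in alveolar type 2 cells it acts with the forkhead factors FOXA1 and FOXA2 and the leucine zipper factor CEBPA on surfactant genes. NKX2-1 and NAPSA, the aspartic protease napsin A, are standard stains for lung adenocarcinoma. The question addressed here is how these genes stood in an EGFR-mutant line when EGFR was inhibited.

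The promoters are shown first because the factors among these genes are known to bind the promoters of the others. RefSeq start sites of GRCh38.p14 gave windows of 250 bases before the start for 8 of the 10 genes, 12 windows in all. FOXA2 and LAMP3 had no entry. Each window was searched on both strands for the letters CTCAAG, a core read by NKX2-1, TGTTTNC, a core read by FOXA factors, and TTNNGCAA, a C/EBP core. Of all 35116 RefSeq windows of this length, 10.4% held the first, 15.5% the second and 9.05% the third. Among the 12 windows of these genes the counts were 2, 5 and 1. The stretches below lie outside annotated exons of their gene, are written 5′ to 3′ on the strand of the gene, and carry the matches in capitals. Those of NKX2-1, FOXA1, SLC34A2 and SFTPB lie inside the annotated span of the gene, which begins further upstream than the RefSeq start used. The NAPSA stretch lies before the annotated span of its gene. SLC34A2 and NAPSA are shown as the alveolar type 2 genes with the largest rises, NKX2-1 and FOXA1 as the factors with the highest levels per length, and SFTPB as the surfactant protein gene among the 10.
NKX2-1, chr14:36520287-36520482, minus strand: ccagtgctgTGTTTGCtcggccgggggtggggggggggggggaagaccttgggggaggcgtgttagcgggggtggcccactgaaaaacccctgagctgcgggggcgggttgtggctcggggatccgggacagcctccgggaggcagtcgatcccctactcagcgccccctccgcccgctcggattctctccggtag
FOXA1, chr14:37595349-37595499, minus strand: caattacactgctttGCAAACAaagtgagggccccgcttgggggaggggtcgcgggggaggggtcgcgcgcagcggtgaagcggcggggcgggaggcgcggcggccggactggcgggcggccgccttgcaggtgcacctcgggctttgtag
NAPSA, chr19:50369303-50369552, minus strand: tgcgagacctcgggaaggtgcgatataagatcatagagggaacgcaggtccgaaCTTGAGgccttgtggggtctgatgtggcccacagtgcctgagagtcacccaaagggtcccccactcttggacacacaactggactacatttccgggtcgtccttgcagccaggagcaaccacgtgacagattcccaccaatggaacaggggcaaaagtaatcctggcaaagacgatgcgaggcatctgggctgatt
SLC34A2 first start, chr4:25655601-25655821, plus strand: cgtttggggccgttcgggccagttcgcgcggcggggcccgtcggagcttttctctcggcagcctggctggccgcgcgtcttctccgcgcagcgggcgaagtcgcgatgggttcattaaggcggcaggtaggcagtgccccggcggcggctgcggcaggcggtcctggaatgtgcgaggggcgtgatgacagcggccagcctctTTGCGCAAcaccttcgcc
SLC34A2 second start, chr4:25656214-25656463, plus strand: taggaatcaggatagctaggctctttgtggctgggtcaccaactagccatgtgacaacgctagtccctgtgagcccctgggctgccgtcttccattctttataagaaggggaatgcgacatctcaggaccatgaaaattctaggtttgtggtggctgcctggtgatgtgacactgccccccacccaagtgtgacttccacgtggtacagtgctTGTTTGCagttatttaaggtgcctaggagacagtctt
SFTPB second start, chr2:85668252-85668449, minus strand: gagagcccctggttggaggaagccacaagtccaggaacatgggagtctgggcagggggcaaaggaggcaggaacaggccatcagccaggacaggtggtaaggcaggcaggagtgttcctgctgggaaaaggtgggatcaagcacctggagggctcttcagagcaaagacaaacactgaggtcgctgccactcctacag

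The NKX2-1 and FOXA1 stretches each held a FOXA core, TGTTTGC and GCAAACA, the latter being the core read from the other strand. Of the windows of NAPSA, that before the first, more distant RefSeq start held CTTGAG, the NKX2-1 core on the other strand. The SLC34A2 windows held TTGCGCAA, a C/EBP core that reads the same on both strands, 47 to 40 bases before the first start, and TGTTTGC 37 to 31 bases before the second. The windows before the second start of NKX2-1 and the first start of SFTPB, not printed, held the FOXA cores TGTTTAC and TGTTTTC. The FOXA1 window also held CTCAAG 46 to 41 bases before the start, in an exon of a FOXA1 transcript and so not printed. None of these letters was found in the windows of CEBPA, ABCA3 and LPCAT1 or before the second starts of NAPSA and SFTPB, where longer sites of other spelling were not searched. A match is a string of letters and was not tested for binding.

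Values are given as signal, the reads of a gene divided by a size factor of its library, as the table holds them. Differences between erlotinib and DMSO are log2 fold changes on log2(signal + 1) from a limma fit over 14215 genes, those whose signal averaged 10 or more, with Benjamini-Hochberg adjustment and a threshold of 0.05. Since the 10 genes were chosen with this contrast already known, their differences are given as a description, without a p-value. In bulk RNA, more cells with a transcript and more transcript per cell cannot be told apart. In the same libraries the genes that follow EGFR and ERK activity were lower with erlotinib in 8 of 8 cases, where 35.4% of all tested genes were lower. This list was also chosen with earlier results of these data known, so its count and p-values are a description. The count was 7 with each library scaled to its total and without DMSO library 1, erlotinib library 4 or erlotinib library 6. On the log2 scale DUSP6, an ERK phosphatase and feedback gene, fell by 4.33, SPRY4, a feedback inhibitor of receptor signalling, fell by 3.95, and ETV4, an ETS factor downstream of ERK, fell by 3.67. CCND1, the G1 cyclin D1, fell by 3.23 and PHLDA1 fell by 1.84 (adjusted p at most 2.7e-12 for these genes, limma). SPRY2 fell least of the 8, by 0.25 (adjusted p = 0.035, limma).

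**Figure D1:**
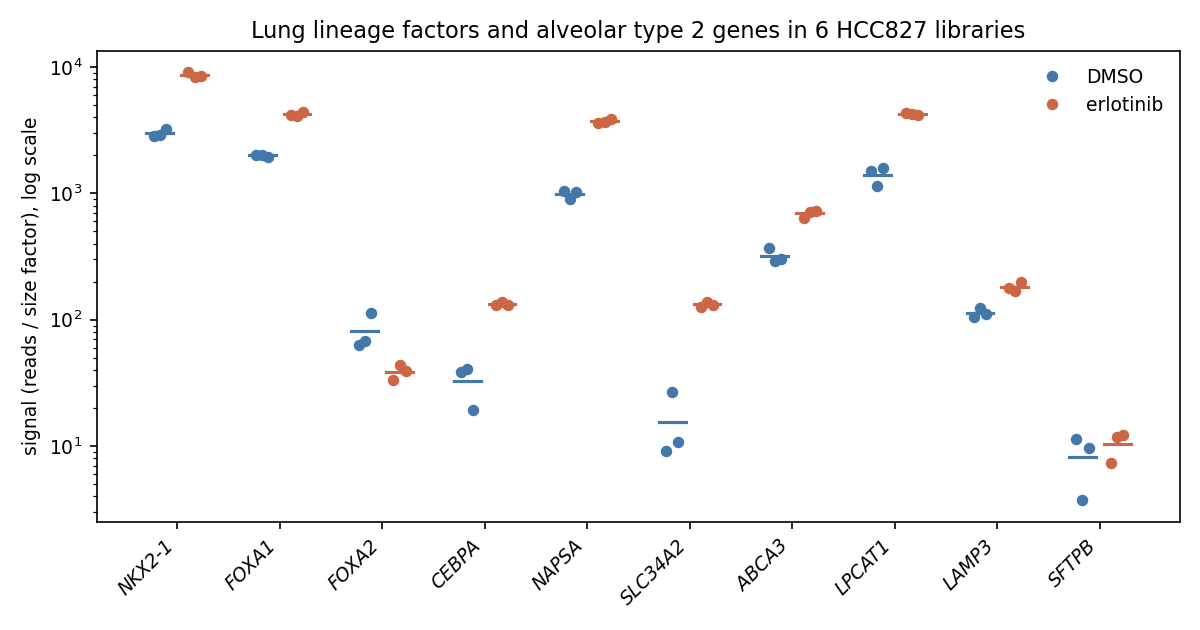
Signal (reads divided by the size factor, log axis) of each gene in the 3 DMSO and 3 erlotinib libraries, with points for libraries and a bar at the group mean. The erlotinib libraries lie above the DMSO libraries for 8 genes, below them for FOXA2, and mix with them for SFTPB.

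Of the 4 transcription factors, NKX2-1, FOXA1 and CEBPA were higher with erlotinib and FOXA2 was lower, where 35.3% of all tested genes were higher and 35.4% lower. NKX2-1 (Entrez gene 7080, chr14:36516392-36521149 of GRCh38, minus strand) had a signal of 2864, 2899 and 3243 in DMSO and 9109, 8344 and 8478 with erlotinib. Every erlotinib library was above every DMSO library, and the mean was 2.88 times that in DMSO, a log2 fold change of 1.53 (SE 0.07). Per length it was the most abundant of the 10 genes in both groups. FOXA1 (Entrez gene 3169, chr14:37589552-37596059, minus strand) had 2027, 2028 and 1938 in DMSO and 4183, 4121 and 4439.8 with erlotinib. The groups were far apart, its DMSO libraries were the most even of the 10 genes, with a coefficient of variation of 2.58%, and its mean was 2.13 times higher, a log2 fold change of 1.09 (SE 0.07).

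FOXA2 (Entrez gene 3170, chr20:22580998-22585455, minus strand), the close relative of FOXA1, had 63.5, 67.8 and 112 in DMSO and 33.2, 43.6 and 39.3 with erlotinib. The groups did not overlap, and it was the only one of the 10 called lower, with a mean 0.476 times that in DMSO, a log2 fold change of -1.01 (SE 0.28). The third DMSO library stood above the other libraries, and without it the log2 fold change was -0.76, still below 0. The distance between the relatives was wider with erlotinib, since they lay in opposite directions from DMSO. Per kilobase of merged exons, the mean signal in DMSO was 453 ± 11.7 for FOXA1 and 29.9 ± 9.95 for FOXA2, and with erlotinib 962 ± 38.3 and 14.2 ± 1.91 (SD, n = 3 each).

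CEBPA (Entrez gene 1050, chr19:33299934-33302534, minus strand), which drives terminal differentiation in several epithelia, had 38.6, 40.9 and 19.3 in DMSO and 130.1, 139 and 132 with erlotinib. The third DMSO library held 18 reads, the fewest, while the erlotinib libraries held 141, 140 and 141. The mean was 4.06 times higher, a log2 fold change of 2.06 (SE 0.28), and the log2 fold change was 1.73 without the third DMSO library. Other C/EBP genes differed among themselves. CEBPD rose from 918 ± 93.2 to 3140.0 ± 60.4 (SD, n = 3 each; log2 fold change 1.78, SE 0.08, adjusted p = 7.1e-14, limma), and CEBPB had a log2 fold change of 0.13 (SE 0.08, adjusted p = 0.15, limma) that did not pass the threshold. CEBPG, the neighbour of CEBPA, fell by 0.68 (adjusted p = 1.3e-07, limma).

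Among the alveolar type 2 genes, 5 were higher with erlotinib, where 35.3% of all tested genes were higher, and SFTPB had too few reads to test. NAPSA (Entrez gene 9476, chr19:50358472-50365830, minus strand), which takes part in cutting the precursor of surfactant protein B, had 1040.2, 901 and 1018 in DMSO and 3622, 3665 and 3911 with erlotinib. Groups were far apart, with a mean 3.78 times higher, a log2 fold change of 1.92 (SE 0.08). The annotated spans of NAPSA and NR1H2 lie on opposite strands and share 7359 bases, introns included. Shared exon bases were not measured, and the strand that was counted is not given in the sources used here. NR1H2, the oxysterol receptor LXR beta, rose from 614 ± 95.8 to 899.9 ± 23.6 (SD, n = 3 each; log2 fold change 0.56, SE 0.11, adjusted p = 8.7e-05, limma). Whether reads of NR1H2 entered the count of NAPSA was not tested. NAPSB, a near copy of NAPSA, held at most 8 reads in a DMSO library and at most 25 with erlotinib.

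SLC34A2 (Entrez gene 10568, chr4:25648011-25678748, plus strand), the sodium-dependent phosphate transporter NaPi2b of the apical membrane, had 9.08, 26.9 and 10.7 in DMSO and 126, 139 and 132 with erlotinib. The erlotinib libraries were close together and all above DMSO. This was the largest rise of the 10, with a mean 8.48 times higher, a log2 fold change of 3.16 (SE 0.35). It started from 8, 29 and 10 reads, so its size depends on the handling of low values. A pseudocount of 10 instead of 1 gave a log2 fold change of 2.54, and fits without 1 of the libraries gave 2.88 to 3.61. The highest value came without the second DMSO library, which held the most reads of its group.

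ABCA3 (Entrez gene 21, chr16:2275881-2340746, minus strand) and LPCAT1 (Entrez gene 79888, chr5:1456480-1523962, minus strand) serve the lipid side of surfactant. ABCA3 pumps phospholipid into the lamellar bodies in which surfactant is stored, and LPCAT1 is an acyltransferase that makes saturated phosphatidylcholine. The signal of ABCA3 was 368, 293 and 304 in DMSO and 639.5, 709 and 732 with erlotinib. All erlotinib libraries were above all DMSO libraries, and the mean was 2.16 times higher, a log2 fold change of 1.11 (SE 0.11). The signal of LPCAT1 was 1509.9, 1138 and 1582 in DMSO and 4316, 4265 and 4163 with erlotinib. The DMSO libraries were more spread (coefficient of variation 16.9%) than the erlotinib libraries (1.84%), and the mean was 3.01 times higher, a log2 fold change of 1.61 (SE 0.09).

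LAMP3 (Entrez gene 27074, chr3:183122215-183163839, minus strand), a lysosome-type membrane protein of lamellar bodies that is also made by mature dendritic cells, had 106, 124 and 111 in DMSO and 179.9, 169 and 198 with erlotinib. The groups did not overlap, and its rise was the smallest among the 8 higher genes, with a mean 1.61 times that in DMSO, a log2 fold change of 0.68 (SE 0.17). SFTPB (Entrez gene 6439, chr2:85657314-85668741, minus strand) encodes surfactant protein B, which is needed for a working film. It had only 10, 4 and 9 reads in DMSO and 8, 12 and 13 with erlotinib, a signal of 11.3, 3.71 and 9.63 in DMSO and 7.38, 11.9 and 12.2 with erlotinib. The groups overlapped, its mean signal was below 10, and no difference could be shown at this depth. Without the filter on low values its log2 fold change was 0.40, and the counts of the 10 genes called stayed at 8 higher and 1 lower.

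**Figure D2:**
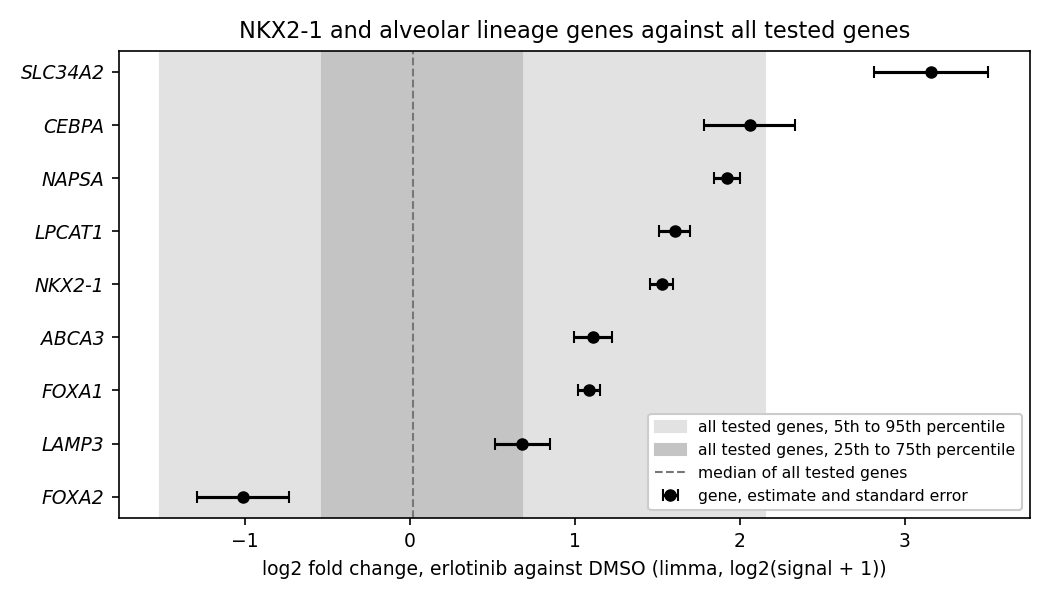
Log2 fold change of erlotinib against DMSO (x axis, limma on log2(signal + 1)) for the 9 tested genes, with bars of 1 standard error, over bands for the middle of all 14215 tested genes. SLC34A2 lies beyond the 95th percentile (2.15), and FOXA2 lies between the 5th (-1.51) and the 25th (-0.53).

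Of the 9 tested genes, 8 were called higher and 1 lower, where 70.7% of all tested genes were called in either direction, 35.3% higher and 35.4% lower. The erlotinib libraries lay wholly above the DMSO libraries for 8 genes and wholly below for 1, against 36.7% and 36.9% of all tested genes, or 73.6% in either direction. The contrast was known when the genes were chosen, so nothing is read from these counts. The median log2 fold change was 1.53 for the 9 genes and 0.02 for all tested genes. By place in the distribution of all tested genes, SLC34A2 stood at percentile 98.4, CEBPA at 94.5 and NAPSA at 93.5. LPCAT1 stood at 90.7 and NKX2-1 at 89.9, followed by ABCA3 at 84.3, FOXA1 at 83.9, LAMP3 at 75.1 and FOXA2 at 10.8.

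Levels were compared between genes per kilobase of merged exons of GENCODE release 44. The aligner used, Bowtie2, places no read over a splice junction, so genes with many short exons may be counted low on this scale. In DMSO the order from high to low was NKX2-1 (949 ± 66.1 signal per kilobase, SD, n = 3), FOXA1, NAPSA (275 ± 20.9), LPCAT1 (218 ± 36.8), ABCA3, LAMP3, FOXA2, CEBPA, SLC34A2 (3.09 ± 1.96) and SFTPB (2.00 ± 0.974). The ranges of LAMP3 and FOXA2 overlapped, as did those of SLC34A2 and SFTPB, and the other neighbours in this order did not overlap. With erlotinib NKX2-1 stayed first, at 2731 ± 129 signal per kilobase. NAPSA (1041 ± 43.5) then stood above FOXA1 (962 ± 38.3), CEBPA (51.4 ± 1.71) above LAMP3, and SLC34A2 (26.2 ± 1.30) above FOXA2. Close places depend on the exon length used, 3586 bases for NAPSA and 4414 for FOXA1, and other lengths were not tried. SFTPB was last, at 2.55 ± 0.653. Only the ranges of CEBPA and LAMP3 overlapped as neighbours in the erlotinib order.

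**Figure D3:**
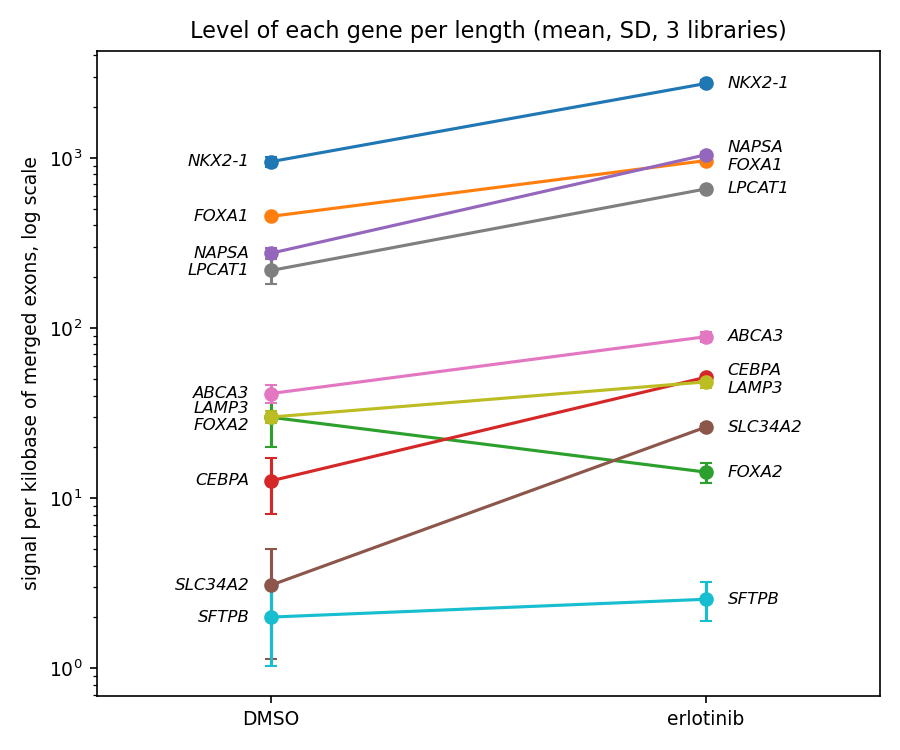
Signal per kilobase of merged exons (log axis) of each of the 10 genes in DMSO and with erlotinib, as mean and SD of 3 libraries. The lines of FOXA2 and SLC34A2 cross, as do those of FOXA1 and NAPSA, and NKX2-1 is highest in both groups.

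The spread between libraries differed among the genes. In DMSO the coefficient of variation was 6.97% for NKX2-1, 7.59% for NAPSA and 8.11% for LAMP3, against 33.3% for FOXA2, 36.1% for CEBPA, 48.6% for SFTPB and 63.4% for SLC34A2, the genes with the fewest reads. With erlotinib it was 4.72% for NKX2-1, 3.34% for CEBPA and 4.96% for SLC34A2, against 13.4% for FOXA2 and 25.6% for SFTPB. No DMSO library was the lowest or the highest for all of these genes.

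The genes beside the factors did not all move with them. NKX2-1-AS1, an RNA from the strand opposite NKX2-1, rose from 64.7 ± 11.3 to 336 ± 33.5 (SD, n = 3 each; log2 fold change 2.37, SE 0.18, adjusted p = 2.0e-10, limma). SFTA3, whose annotated span covers NKX2-1 on the same strand, rose from 230.1 ± 10.0 to 974 ± 123 (log2 fold change 2.07, SE 0.11, adjusted p = 1.2e-12, limma). Reads from overlapping exons of these genes cannot be told apart in this table, and their signal over all 6 libraries averaged 200.3 and 602, beside 5823 for NKX2-1. NKX2-8, a neighbouring homeobox gene, had 191, 117 and 193 in DMSO and 166, 167 and 175 with erlotinib, and its groups overlapped (log2 fold change 0.06, adjusted p = 0.79, limma). MBIP, on the other side of NKX2-1, also overlapped (log2 fold change -0.02, SE 0.13, adjusted p = 0.87, limma). PAX9, a paired box gene further along, fell by 0.43 (adjusted p = 8.3e-04, limma). Next to FOXA1, TTC6 rose by 0.98 (adjusted p = 3.3e-05, limma), and its annotated span overlaps that of FOXA1 by 431 bases. MIPOL1 did not pass the threshold (log2 fold change -0.17, SE 0.12, adjusted p = 0.21, limma). LINC00261 beside FOXA2 held at most 2 reads in any library. CEBPA-DT, which starts next to CEBPA on the other strand, had 1, 4 and 10 reads in DMSO and 6, 7 and 6 with erlotinib, too few to test. Of the 10 neighbours in the table, 8 were tested, 3 were higher and 2 lower, where 35.3% of all tested genes were higher and 35.4% lower.

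The genes whose values over the 6 libraries lay closest to those of NKX2-1, after each was centred on its DMSO mean on the log2 scale, were REPS2, BTBD9, ZBTB46, NIPAL2 and PARP10. Their root mean square distance from NKX2-1 was 0.053 to 0.066 log2 units. The signal of REPS2 averaged 129.9 in DMSO and 382 with erlotinib, and that of PARP10 averaged 958 and 2752. Likeness over 2 groups of 3 libraries rests mainly on the size of the rise.

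Other genes of alveolar type 2 cells were mostly either almost without reads or higher with erlotinib. Of 14 such genes, 5 had enough signal to test, 3 were higher, ETV5 was lower and MALL was neither, where 35.3% of all tested genes were higher. The 3 higher genes were SFTPA2, CTSH and SFTA3. SFTA3 is also counted among the higher neighbours above, and its reads from exons shared with NKX2-1 cannot be told apart. With at least 10 reads in every library 2 were higher, since SFTPA2 had a DMSO mean below 10 and entered the fit through the erlotinib libraries. Such genes are described here and below by their values, without a p-value. Their median log2 fold change was 1.74, or 0.67 without SFTPA2, and that of all tested genes was 0.02. SFTPA2, which encodes a chain of surfactant protein A, had 13.6, 9.29 and 4.28 in DMSO and 227, 226 and 233 with erlotinib. No DMSO library came near the erlotinib libraries, and the log2 fold change was 4.63 (SE 0.33). SFTPA1 is nearly identical to it, so unique mapping can split or drop their reads and the share of each is uncertain. SFTPA1 held 0 reads in every DMSO library and 8, 14 and 6 with erlotinib. Set against the 3 reads that a 0 allows in each DMSO library, its mean was at least 2.86-fold higher. CTSH, a cathepsin that helps process surfactant protein precursors, rose from 236 ± 30.7 to 785 ± 43.5 (SD, n = 3 each; log2 fold change 1.74, SE 0.12, adjusted p = 4.0e-11, limma).

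SFTPC, the most specific gene of the mature type 2 cell, held 0 reads in 5 libraries and 2 in erlotinib library 6. SFTA2, PGC, WIF1 and LRRK2 held 0 reads in all 6 libraries, which allows up to 3 reads in each, a limit that covers counting error only. HHIP held at most 2 reads in any library and SFTPD at most 6. ETV5, an ETS factor that keeps type 2 cells in their state and is also a target of ERK, fell from 1327 ± 30.0 to 67.6 ± 28.9 (SD, n = 3 each; log2 fold change -4.38, SE 0.22, adjusted p = 2.6e-13, limma). By these markers the HCC827 cells had the lineage factors and a part of the alveolar type 2 genes, while SFTPC was at or near 0 in both groups and SFTPB held few reads in every library.

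Most listed genes of phosphatidylcholine and fatty acid metabolism were lower with erlotinib, unlike ABCA3 and LPCAT1. The list covers lipid metabolism in general, and its link to surfactant was not tested. Of the 12 listed genes, 10 were tested, 9 were lower and CEPT1 was higher, where 35.4% of all tested genes were lower. The lower count was 7 with each library scaled to its total and 8 without DMSO library 3, erlotinib library 4 or erlotinib library 6, and with no filter 2 were higher. Their median log2 fold change was -0.70. SCD, the stearoyl-CoA desaturase, had 42149, 43239 and 42767 in DMSO and 5082, 4928 and 5009.9 with erlotinib. Every erlotinib library was at a small part of the DMSO level (log2 fold change -3.09, SE 0.06, adjusted p = 2.3e-19, limma). FASN, the fatty acid synthase, fell from 19949.8 ± 2785 to 6539.9 ± 144 (log2 fold change -1.60, SE 0.08, adjusted p = 3.1e-13, limma), and ACLY, which makes cytosolic acetyl-CoA, fell from 14408 ± 834 to 6539.5 ± 73.5 (SD, n = 3 each; log2 fold change -1.14, SE 0.06, adjusted p = 1.4e-12, limma). In the choline branch, PCYT1A, its rate-limiting enzyme, fell by 0.44 (adjusted p = 5.5e-04), CHPT1 by 1.01 (adjusted p = 3.2e-06) and CHKA by 0.27 (adjusted p = 0.011, limma for all). CEPT1, which also joins choline to diacylglycerol, rose by 0.34 (adjusted p = 0.0029, limma).

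**Figure D4:**
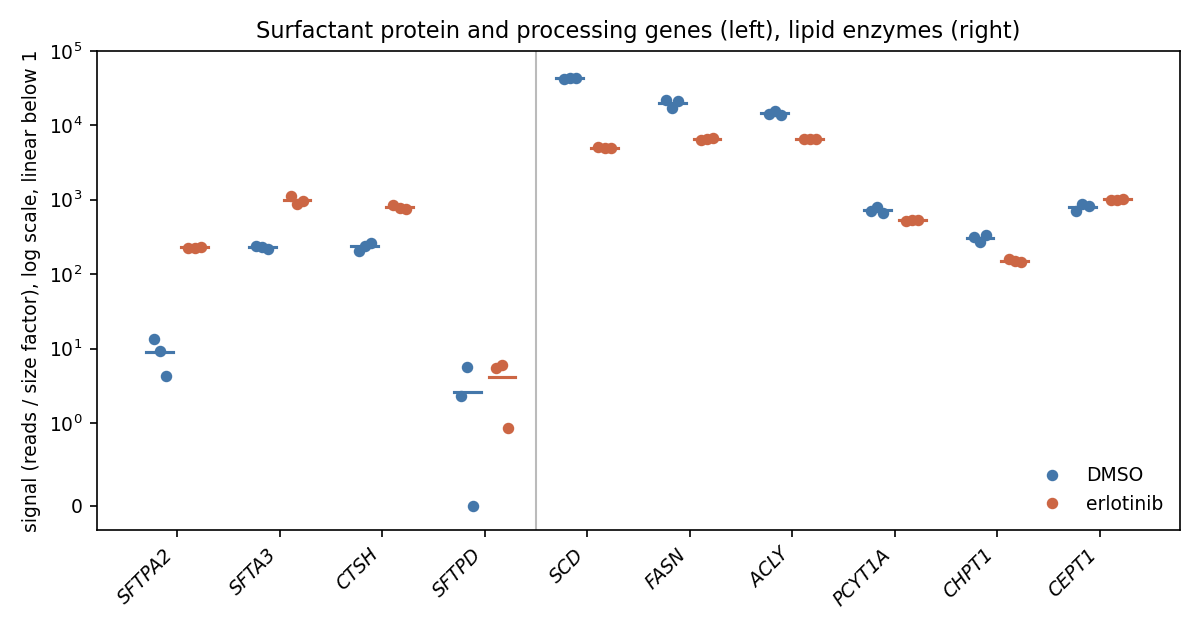
Signal (reads divided by the size factor, log axis that is linear below 1) in the 3 DMSO and 3 erlotinib libraries, with a bar at the group mean, for surfactant protein and processing genes on the left and lipid enzymes on the right. SFTPA2, SFTA3 and CTSH lie higher with erlotinib, SFTPD mixes, and SCD, FASN, ACLY, PCYT1A and CHPT1 lie lower.

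Other transcription factors of the lung epithelium were called in both directions, where 35.3% of all tested genes were higher and 35.4% lower. Of 14, 13 were tested, 5 were higher, 3 lower and 5 neither, and their median log2 fold change was 0.13. With each library scaled to its total 9 were higher and 2 lower, with at least 10 reads in every library 4 were higher, and without DMSO library 3, erlotinib library 4 or erlotinib library 6 only 2 were lower. HOPX, a homeodomain-like factor of alveolar type 1 cells, held 2, 10 and 4 reads in DMSO and 49, 26 and 56 with erlotinib. SOX2, the factor of the proximal airway, rose from 223 ± 22.5 to 1574 ± 162 (SD, n = 3 each; log2 fold change 2.82, SE 0.11, adjusted p = 4.6e-15, limma). SOX9, the factor of the distal tips of the growing lung, fell from 354 ± 52.7 to 49.8 ± 10.5 (log2 fold change -2.81, SE 0.19, adjusted p = 4.6e-11, limma). ID2, also known from distal tips, rose by 1.46, and NFIA fell by 1.45 (adjusted p = 1.6e-10 and 3.7e-10, limma). KLF5, a zinc finger factor of the alveolar epithelium, rose by 0.29 (adjusted p = 4.5e-04, limma), and GATA6 fell by 0.34 (adjusted p = 0.033, limma), the closest to the threshold of the 3 lower genes.

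Markers of alveolar type 1 cells were called in both directions, and 1 basal cell marker was called lower. Of the 14 alveolar type 1 markers, 7 were tested, 2 were higher, 3 lower and 2 neither, where 35.3% of all tested genes were higher and 35.4% lower, and their median log2 fold change was -0.11, or -0.56 without AQP5. Only 1 was higher when at least 10 reads were required in every library. AQP5, a water channel, held 10, 10 and 0 reads in DMSO and 29, 41 and 23 with erlotinib, a log2 fold change of 2.56 that was 1.395 without DMSO library 3, 3.21 without DMSO library 1 and 1.28 with a pseudocount of 10. AKAP5, a kinase anchor, rose from 204 ± 23.6 to 986 ± 83.1 (log2 fold change 2.27, SE 0.12, adjusted p = 4.3e-13, limma). The caveolins CAV1 and CAV2 fell by 1.31 and 1.01, and RTKN2 by 1.81 (adjusted p at most 8.1e-09, limma). AGER, the most specific type 1 gene, held 0 reads in all 6 libraries. Of 6 basal cell markers, 5 were tested and KRT15 was lower (log2 fold change -0.41, SE 0.12, adjusted p = 0.0039, limma), a call lost when each library was scaled to its total. Without the first DMSO library 3 were lower, and KRT5, which was neither (log2 fold change 0.07, SE 0.32, adjusted p = 0.85, limma), had a log2 fold change of -0.48.

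Of the 7 club and secretory markers, MUC5B, a gel-forming mucin, could be tested and was neither (log2 fold change -0.05, SE 0.10, adjusted p = 0.69, limma). With no filter on low values 1 club marker and 1 basal marker were higher. CYP2F1, a cytochrome of club cells, held 0 reads in DMSO and 9, 9 and 12 with erlotinib, and SCGB1A1 and SCGB3A2, which define the type, held 0 reads in all 6 libraries. CALCA, CHGA, GRP and INSM1 of the neuroendocrine list also held 0 reads, and SYP, with 15, 6 and 2 reads in DMSO and 29, 6 and 10 with erlotinib, was neither.

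Some genes of other lineages were higher as well. Of 8 ciliated cell markers, 5 were tested and all 5 were higher, where 35.3% of all tested genes were higher. With at least 10 reads in every library, which leaves out FOXJ1 and DNAI1, 3 were higher, and without DMSO library 1, DMSO library 3, erlotinib library 4 or erlotinib library 6 the count was 4. Their median log2 fold change was 2.28, or 0.89 without FOXJ1 and DNAI1, which entered the fit through the erlotinib libraries. Their summed signal was 471, 543 and 426 in DMSO and 2040.3, 1840.3 and 2620.1 with erlotinib. DNAH5, a dynein heavy chain, made up 82.3% of it and rose by 2.28 (adjusted p = 3.3e-12, limma), and FOXJ1, the master factor of cilia, held 2, 2 and 0 reads in DMSO and 172, 146 and 152 with erlotinib. CCDC78 rose by 0.87 (adjusted p = 5.6e-04, limma). DNAI1, a dynein intermediate chain, held 0, 3 and 8 reads in DMSO and 15, 25 and 24 with erlotinib, a log2 fold change of 2.65 that was 1.79 without DMSO library 1, 3.42 without DMSO library 3 and 1.17 with a pseudocount of 10, while DNAI2 held 0 reads in all 6 libraries. Of 17 gastrointestinal lineage genes, 6 were tested and 5 were higher, against 35.3% of all tested genes, with a median log2 fold change of 1.54, or 0.65 without CDX2 and LGALS4, which entered the fit through the erlotinib libraries. With at least 10 reads in every library 3 were higher and 1 lower.

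CDX2, the homeobox factor of the intestine, held 0, 0 and 2 reads in DMSO and 54, 52 and 28 with erlotinib. LGALS4, an intestinal lectin, held 0 reads in DMSO and 32, 11 and 23 with erlotinib. Set against the same limit its mean was at least 6.59-fold higher. VIL1, the villin of the brush border, rose from 35.0 ± 2.12 to 162 ± 9.08 (SD, n = 3 each; log2 fold change 2.18, SE 0.22, adjusted p = 1.7e-08, limma). HNF4G, a nuclear receptor of the gut, rose by 0.42 (adjusted p = 1.1e-04, limma). PDX1, the pancreatic and duodenal factor, was neither (log2 fold change -0.84, adjusted p = 0.081, limma). Its signal was 30.6, 25.1 and 23.5 in DMSO and 12.9, 11.9 and 18.7 with erlotinib. It was the gene called lower with at least 10 reads in every library. FOXA3, CDX1, GKN1, GKN2, TFF2, TFF3 and MUC6 held 0 reads in all 6 libraries.

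**Figure D5:**
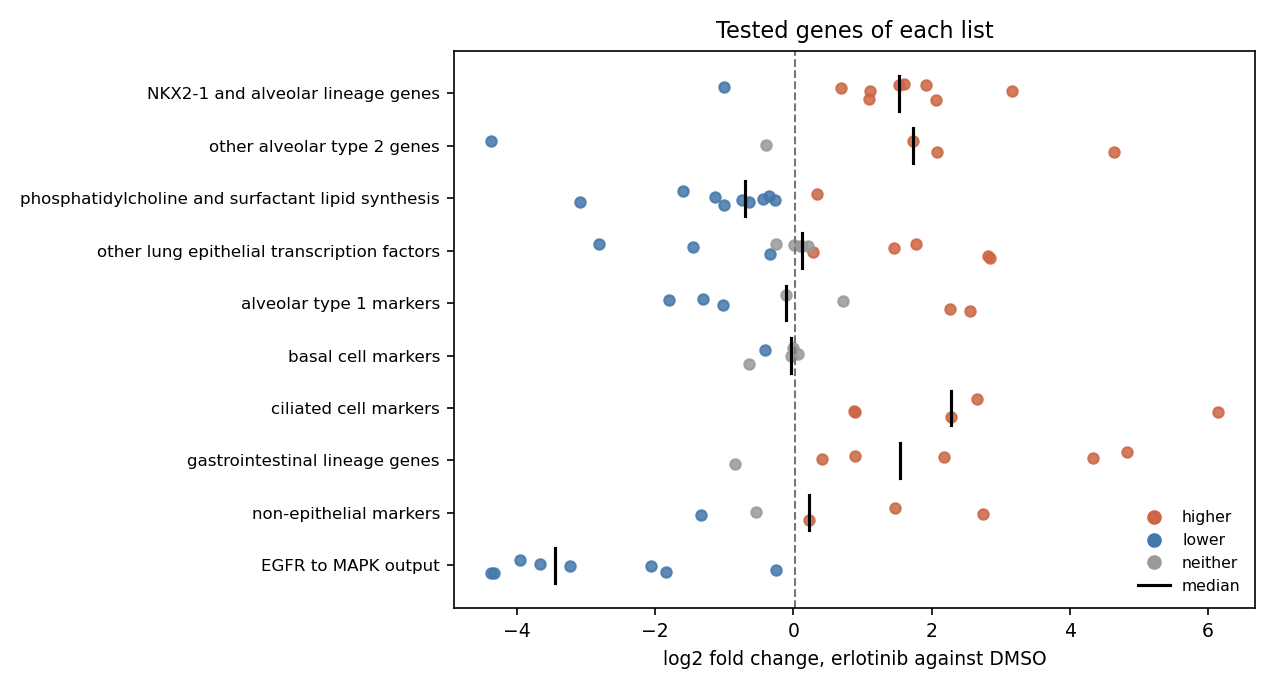
Log2 fold change of erlotinib against DMSO (x axis) of the tested genes of each list, coloured by call at an adjusted p-value under 0.05 (limma), with a bar at the median of the list and a dashed line at the median of all tested genes. The median of the 9 tested genes described here lies at 1.53 and that of the lipid enzymes at -0.70. The medians of the other alveolar type 2 genes, ciliated markers and gastrointestinal genes lie above 1 in the plot and below 1 without the genes whose DMSO mean was under 10.

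Markers of cells that are not epithelial were followed because LAMP3 is shared with dendritic cells. The summed signal of the 15 markers was 2942, 2938 and 3345 in DMSO and 3579, 3838 and 3748 with erlotinib. CD68, a lysosomal protein that epithelial lines also make, held 92.6% of it and rose by 0.23 (adjusted p = 0.0076, limma, and 0.051 without erlotinib library 5). Of the 5 tested, 3 were higher and 1 lower, where 35.3% of all tested genes were higher and 35.4% lower. The count was 2 higher without erlotinib library 5 or with at least 10 reads in every library, which leaves out VWF, and 6 were higher with no filter on low values. COL1A1, a collagen chain, rose by 1.47 (adjusted p = 6.8e-07, limma), and VWF, an endothelial gene, held 3, 1 and 7 reads in DMSO and 38, 26 and 23 with erlotinib. Of the other endothelial markers, PECAM1 was neither, with 17, 16 and 12 reads in DMSO and 14, 9 and 10 with erlotinib, and CDH5 held 10, 0 and 0 reads in DMSO and 11, 8 and 13 with erlotinib. Of the fibroblast markers, COL1A2, COL3A1 and DCN held at most 3 reads in any library, and LUM held 2, 4 and 6 reads in DMSO and 10, 10 and 20 with erlotinib. Of the dendritic cell genes, CD83 fell by 1.34 (adjusted p = 0.001, limma), and CCR7 and ITGAX held at most 6 reads in any library. PTPRC, the common leukocyte antigen, held at most 6 reads as well. The part of these markers in the rise of LAMP3 was not tested.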

How the data were processed

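Poly(A) RNA of HCC827 cells was sequenced, with 3 libraries per condition. Per the submitters' processing notes, reads were mapped to GRCh38 with Bowtie2 2.3.4 and counted per gene with featureCounts 1.6.3. The notes also name DESeq2 1.18.1. The deposited table of 28395 genes, 475 without a symbol, holds signal as the authors gave it. These are reads divided by a size factor per library, since 100% of the values are whole multiples of 1 step within 0.01, also in the library whose step is close to 1. The division and the strand counted are not given in the sources used here. Replicates differed by more than sampling noise (chi-square divided by its degrees of freedom, 4.13 to 24.3). All columns were used, and the erlotinib columns served as replicates without a number.
limma 3.58.1 (R 4.3.3, trend of variance on mean, two-sided) was fitted on log2(signal + 1) over genes whose signal averaged 10 or more. edgeR 4.0.16 and DESeq2 1.42.0 on recovered reads, TMM and total scaling, pseudocounts of 0.1 and 10, no filter, at least 10 reads in every library, a threshold of 0.01 and each library left out in turn were the alternatives. The 10 genes and the 12 lists beside them were chosen with earlier results of these data known. Named were all 10 genes, their neighbours, of each list the 3 called genes with the largest change and the 2 with the highest signal, and the 5 genes nearest to NKX2-1. Other genes were named after their values were seen, and some single genes of the lists are counted but not reported here. The fit was tested on simulated data. Promoter sequences are from RefSeq (GRCh38.p14), positions and exon lengths from GENCODE release 44. Figures were drawn with matplotlib 3.10.9.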

Additional observations from a re-analysis of the deposited data

How the results depend on the processing

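Over the 15 alternatives run for all genes, 4323 to 6156 genes were higher and 3955 to 5096 lower, and leaving out each library in turn gave 4585 to 5094 and 4702 to 5096. On the reads recovered from the table, edgeR called 5085 higher and 4941 lower, and DESeq2 4949 and 4934. Scaling each library to its total shifted the median of all genes on the log2 scale from 0.02 to 0.19, and differences under that setting are to be read relative to it. Of the genes described here, 7 or 8 were higher and 1 lower under the 14 alternatives run for them. The 7 came from requiring at least 10 reads in every library, where SLC34A2 could not be tested. Each of the 9 tested genes otherwise kept its direction. These calls are a description, since the genes were chosen with the contrast known. The log2 fold change lay between 1.49 and 1.71 for NKX2-1, between 1.86 and 2.10 for NAPSA and between -1.16 and -0.76 for FOXA2. Among the other named genes, values near 0 changed sign. With each library scaled to its total, MUC5B had 0.13, MBIP 0.16 and MIPOL1 0.0077. KRT5 had -0.1005 with edgeR and -0.1029 with DESeq2. Over the fits that left out a library, MUC5B lay between -0.17 and 0.043, KRT5 between -0.48 and 0.40, MBIP between -0.14 and 0.049 and NKX2-8 between -0.18 and 0.18. The cause was not tested. No paired analysis was possible because the erlotinib columns carry numbers that match no numbered erlotinib sample of the labels. Depth limits SFTPB, SFTPC, SFTPA1 and the genes with few reads in DMSO.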
